A study of Homo sapiens with 16 samples.

Results

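The cathepsins are the proteases of the lysosome, and 10 of their genes (CTSA, CTSB, CTSC, CTSD, CTSF, CTSH, CTSL, CTSO, CTSS and CTSZ) were followed in multiple myeloma (MM) cells. The genes were chosen by symbol, and their probes were found through the RefSeq accession that the scanner files give for each probe. All 10 had a probe, of 20503 gene symbols on the array, and 9 were measured well enough to be tested. CTSS was the exception. The cells were LP-1, a human MM line with a deletion in TRAF3 that removes its MATH domain, so all samples share this lesion. LP-1-cIAP2-eGFP cells carried a lentiviral vector for cIAP2 and eGFP, and control (LP-1-eGFP) cells carried the vector for eGFP alone, and both were sorted on eGFP. Each line was left untreated or incubated with 10 nM bortezomib, a proteasome inhibitor, for 6 h or 24 h. Each of the 8 conditions had 2 biological replicates, which gave 16 single-colour arrays, and this number limits the precision. Each line was 1 transduced and sorted population, so that an effect of cIAP2 and any other difference between the 2 populations cannot be told apart.

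Cathepsins are made as inactive precursors in the endoplasmic reticulum, are carried to the lysosome by mannose 6-phosphate receptors, and are activated there by cleavage at low pH. Most are cysteine proteases, which cystatins inhibit. CTSD is an aspartic protease and CTSA a serine carboxypeptidase that also shields 2 glycosidases, GLB1 and NEU1, from degradation. In cells of the B lineage, cathepsins take part in the removal of the invariant chain (CD74) from MHC class II molecules, and in many cell types they degrade what autophagy delivers. Many lysosomal genes are regulated by the transcription factors TFEB, TFE3 and MITF, which bind the palindrome CACGTG.

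The promoters are shown because the members with and without this palindrome can then be set beside their responses. RefSeq sequence (GRCh38.p14) was given for 7 of the 10 members, and the 250 bases before the gene start were searched for CACGTG, which reads the same on both strands. It was present in 3 of the 7, CTSA, CTSD and CTSF, and in 6.34% of 35116 promoters of the same length. CTSA and CTSF held 2 copies each, and 0.535% of all promoters held 2 or more. The letters were not in the windows of CTSC, CTSH, CTSL and CTSZ. The sequences run from 5′ to 3′ towards the gene start, with CACGTG in capitals:
CTSA (chr20:45891085-45891334, + strand): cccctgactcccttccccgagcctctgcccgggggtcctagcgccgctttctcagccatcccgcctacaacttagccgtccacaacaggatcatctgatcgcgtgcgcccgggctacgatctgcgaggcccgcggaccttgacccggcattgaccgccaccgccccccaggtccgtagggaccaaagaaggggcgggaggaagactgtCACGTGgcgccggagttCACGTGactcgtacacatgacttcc
CTSD (chr11:1763928-1764177, - strand): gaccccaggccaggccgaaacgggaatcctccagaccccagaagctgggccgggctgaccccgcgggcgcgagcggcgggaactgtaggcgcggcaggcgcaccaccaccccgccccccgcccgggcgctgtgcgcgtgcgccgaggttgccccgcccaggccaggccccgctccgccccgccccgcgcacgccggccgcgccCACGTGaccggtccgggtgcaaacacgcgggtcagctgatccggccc
CTSF (chr11:66568607-66568856, - strand): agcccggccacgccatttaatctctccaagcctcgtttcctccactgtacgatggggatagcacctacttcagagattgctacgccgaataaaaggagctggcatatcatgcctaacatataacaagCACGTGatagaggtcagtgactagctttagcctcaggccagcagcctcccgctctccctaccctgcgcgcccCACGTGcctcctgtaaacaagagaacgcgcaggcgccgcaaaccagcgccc

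The copies began 42 and 25 bases before the start in CTSA, 47 bases before it in CTSD, and 123 and 51 bases before it in CTSF. A match describes the letters and does not show that a factor was bound.

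Signals are given as log2 of the background-corrected intensity after quantile normalization, and the level of one probe is not set against that of another. Where a gene had several probes, the brightest is reported first. The probe for BIRC3, the gene of cIAP2, lies outside the transgene according to the study's methods and detects the endogenous transcript alone, so it does not check the overexpression. Its signal was 1.16 lower on the log2 scale in LP-1-cIAP2-eGFP cells (SE 0.0748, limma adjusted p = 7.42e-06). The study itself reported the increase in cIAP2 by qRT-PCR and western blot. All 9 plasma cell markers were well above background on at least 1 array, and 7 of them on all 16. Of the markers of other cell types, 3 of 6 matched macrophage and monocyte genes (CD14, ITGAM, MARCO), 2 of 8 fibroblast genes (COL1A1, DCN) and 7 of 7 T and NK cell genes (CD2, CD3D, CD3E, CD3G, GNLY, NKG7, PRF1) exceeded background on some array, and none did so on all 16. One array stood apart: LP-1-cIAP2-eGFP cells with bortezomib at 24 h, replicate 1, had 35.5% of spots well above background, against 49.0% to 71.1% on the others. The 2 arrays of that condition differed by an SD of 1.48 over probes, against 0.495 to 0.773 in the other 7 conditions. Its values are named where they matter, and without it 6 cathepsin genes were called between the lines, 3 with bortezomib at 6 h and 5 at 24 h, against 6, 2 and 5 with it.

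**Figure D1:**
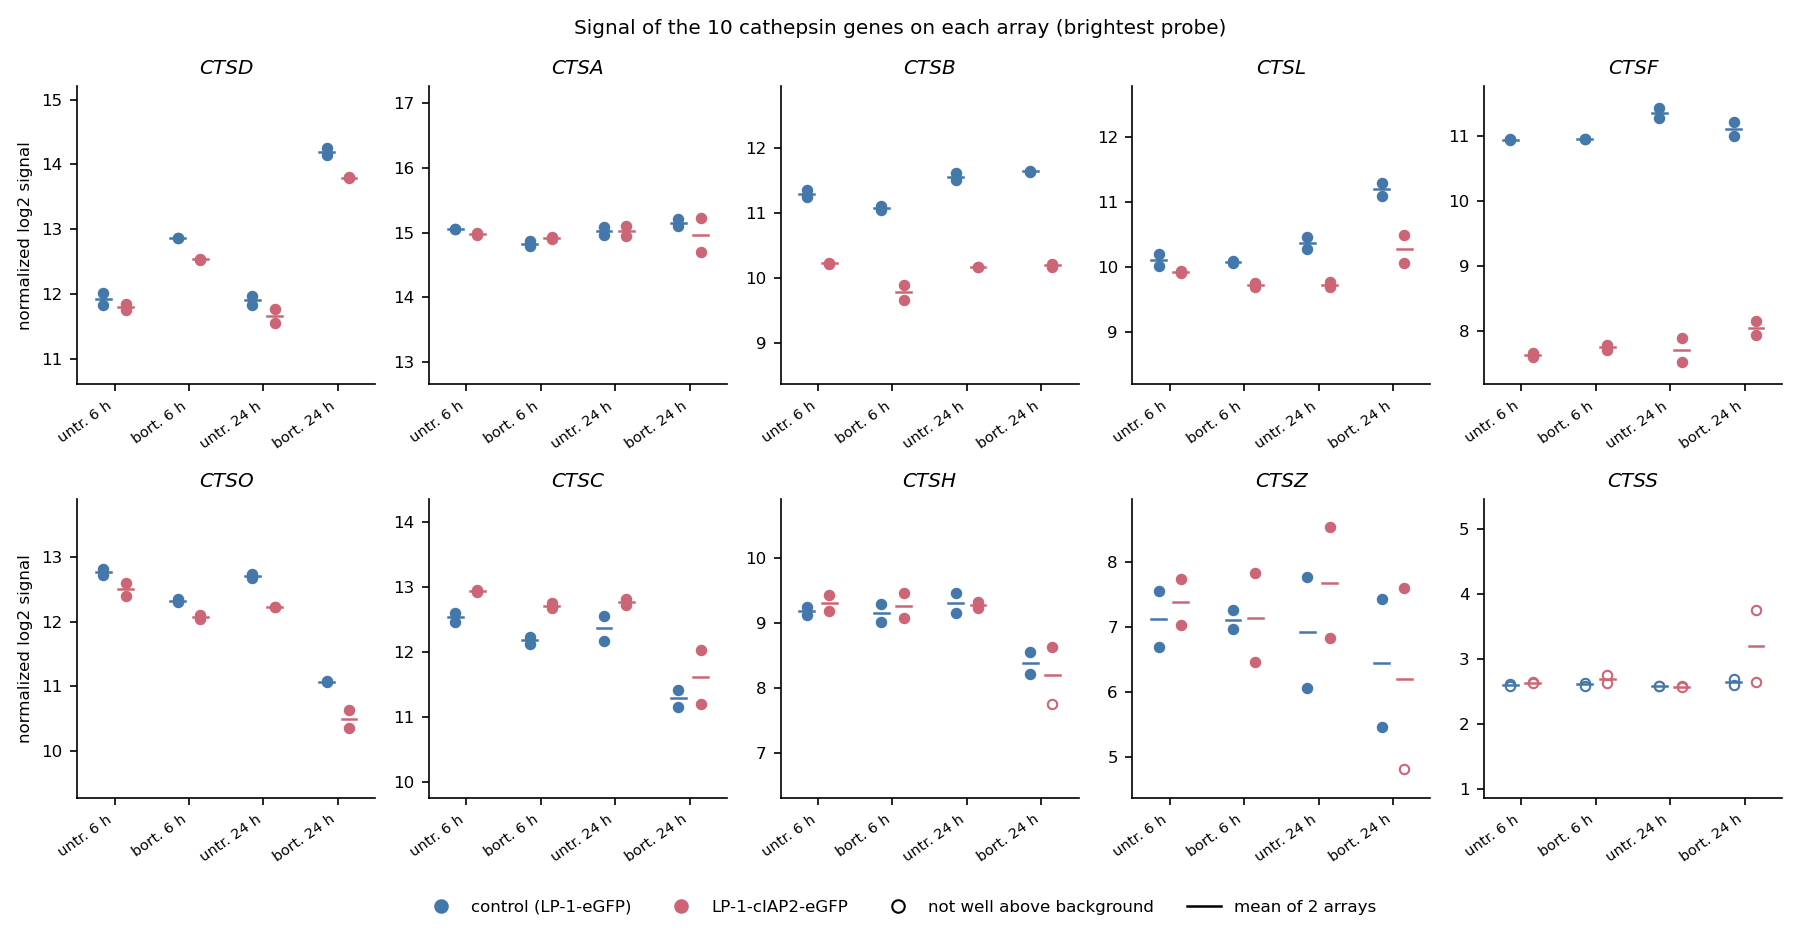
Normalized log2 signal (vertical axis, a span of 4.6 in each panel) of the brightest probe of each cathepsin gene, by treatment and time, for control and LP-1-cIAP2-eGFP cells. Each point is 1 array, bars are the mean of 2 arrays, and open points were not well above background. CTSF and CTSB were separated by line in each condition, and CTSD was higher and CTSO lower with bortezomib at 24 h in both lines.

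The first question was whether the cathepsins differed between the lines. Averaged over treatment and time, 5 of the 9 tested genes were lower in LP-1-cIAP2-eGFP cells (CTSF, CTSB, CTSL, CTSO and CTSD) and 1 was higher (CTSC), while CTSA, CTSH and CTSZ were not called. A gene was called at a Benjamini-Hochberg adjusted p under 0.05 in a limma model with 1 mean for each condition, adjusted over all probes tested. Over the 33715 probes with a value in this comparison, 16.1% were called, 9.84% lower and 6.26% higher. Counted by gene on the brightest probe, as for the cathepsins, 12.7% of all genes tested were lower and 9.04% higher. The median difference of the 9 genes was -0.27, against -0.01 over all 16398 genes tested. Since the arrays hold RNA from whole cultures, fewer cells that express a gene and less RNA per cell cannot be told apart.

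CTSF, a lysosomal cysteine endopeptidase, had the largest difference of the 9 genes. In untreated control cells its signal was 10.93 and 10.96 (replicates 1 and 2) at 6 h and 11.43 and 11.27 at 24 h, and bortezomib-treated control cells gave 10.95 and 10.95, then 11.22 and 11.00. In LP-1-cIAP2-eGFP cells the same conditions, in the same order, gave 7.65 and 7.60, 7.89 and 7.51, 7.78 and 7.70, and 8.15 and 7.93. The lines did not overlap in any condition, and the highest LP-1-cIAP2-eGFP array lay far below the lowest control array. The averaged difference was -3.31 (SE 0.0801, adjusted p = 1.83e-08), or 9.95-fold lower, and the probe was well above background on all 16 arrays. It ranged from -3.65 untreated at 24 h to -3.07 with bortezomib at 24 h.

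CTSB, a cysteine protease that cuts within proteins and also removes dipeptides from their ends, was lower by 1.30 on average (SE 0.0637, adjusted p = 1.11e-06), or 2.47-fold. Untreated control arrays read 11.24 and 11.35 at 6 h and 11.61 and 11.50 at 24 h, and treated control arrays 11.11 and 11.04, then 11.63 and 11.65. The LP-1-cIAP2-eGFP arrays, in that order, read 10.23 and 10.21, 10.17 and 10.17, 9.66 and 9.89, and 10.21 and 10.17. The lines were apart in each condition, and within each line the 24 h treated arrays lay next to the untreated ones. CTSF and CTSB were also the only members past the thresholds of the study's 3-way analysis (an adjusted p below 0.001, and the untreated lines over 2-fold apart), which 2.37% of probes passed.

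CTSL, an endopeptidase that also acts outside the lysosome, was lower by 0.53 (SE 0.084, adjusted p = 0.00201), and CTSO, a less studied cysteine cathepsin, by 0.39 (SE 0.0677, adjusted p = 0.00321). For CTSL the untreated control arrays read 10.20 and 10.01 at 6 h and 10.28 and 10.45 at 24 h, and the treated ones 10.08 and 10.06, then 11.29 and 11.09. The LP-1-cIAP2-eGFP arrays of these conditions read 9.90 and 9.94, 9.68 and 9.76, 9.69 and 9.75, and 10.05 and 10.49. Each pair of CTSL arrays was lower in LP-1-cIAP2-eGFP cells than in the control cells of that condition, by a margin that was narrow untreated at 6 h.

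The CTSL difference was -0.19 untreated at 6 h (adjusted p = 0.772), -0.35 with bortezomib at 6 h (0.414), -0.65 untreated at 24 h (0.0912) and -0.93 with bortezomib at 24 h (0.0135). Whether these differences changed with time was not tested. Without overlap in any of the 4 conditions, CTSF, CTSB, CTSL and CTSO were lower in LP-1-cIAP2-eGFP cells, which makes 4 of the 9 genes on their brightest probes. By probe, these 4, the dimmer CTSA probe (lower) and CTSC probe A_23_P1552 (higher) were apart in all 4 conditions, 6 of the 12 probes tested, and 11.5% of all probes were apart in either direction in this way.

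Taken condition by condition, CTSF and CTSB were called in each of the 4, and CTSL and CTSO in addition with bortezomib at 24 h. With bortezomib at 6 h, here and in the counts without overlap, line and slide cannot be told apart, as given below. Of all probes, 3.09% (6 h) and 2.77% (24 h) were called between the untreated lines, and 3.31% (6 h) and 5.92% (24 h) between the treated lines. Averaged over the untreated conditions alone, CTSF, CTSB and CTSO were called (3 of 9, against 7.75% of probes).

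CTSD and CTSC differed little and their calls were less firm. CTSD was lower by 0.27 (SE 0.0677, adjusted p = 0.0212). CTSC, or dipeptidyl peptidase 1, which activates serine proteases of immune cell granules, was higher by 0.42 on its brightest probe (SE 0.124, adjusted p = 0.0469), by 0.41 on another (adjusted p = 0.0125) and by 0.40 on the remaining one (adjusted p = 0.124). Of 25 alternative settings, 13 took the CTSD difference and 17 the CTSC difference past an adjusted p of 0.05, with the direction kept in all 25. CTSA gave -0.04 on its brightest probe (SE 0.0852, 95% interval -0.23 to 0.15, adjusted p = 0.799) and -0.35 on its other probe (SE 0.0962, adjusted p = 0.0364). The difference between the CTSA probes on an array was itself 0.30 lower in LP-1-cIAP2-eGFP cells than in control cells, a probe difference found after the values were seen (exact permutation test, 8 against 8 arrays, p = 0.00264, 0.0106 after adjustment over 4 probe comparisons). CTSH, an aminopeptidase, differed by 0.01 (95% interval -0.30 to 0.32).

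The arrays lay on 2 slides, and 6 of the 8 LP-1-cIAP2-eGFP arrays but 2 of the 8 control arrays were on slide 1. With bortezomib at 6 h, both LP-1-cIAP2-eGFP arrays were on slide 1 and both control arrays on slide 2. Line and slide cannot be told apart in that condition, which the values within slides leave out. Within slides 1 and 2, over the conditions present for both lines, the difference was -3.24 and -3.59 for CTSF, -1.28 and -1.21 for CTSB, -0.57 and -0.43 for CTSL, and -0.50 and -0.29 for CTSO. For CTSD it was -0.23 and -0.30, and for CTSC 0.39 and 0.47. The directions held on each slide, but with the slide as a block the CTSD (-0.31, adjusted p = 0.0664) and CTSC (0.45, adjusted p = 0.138) differences were no longer called.

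**Figure D2:**
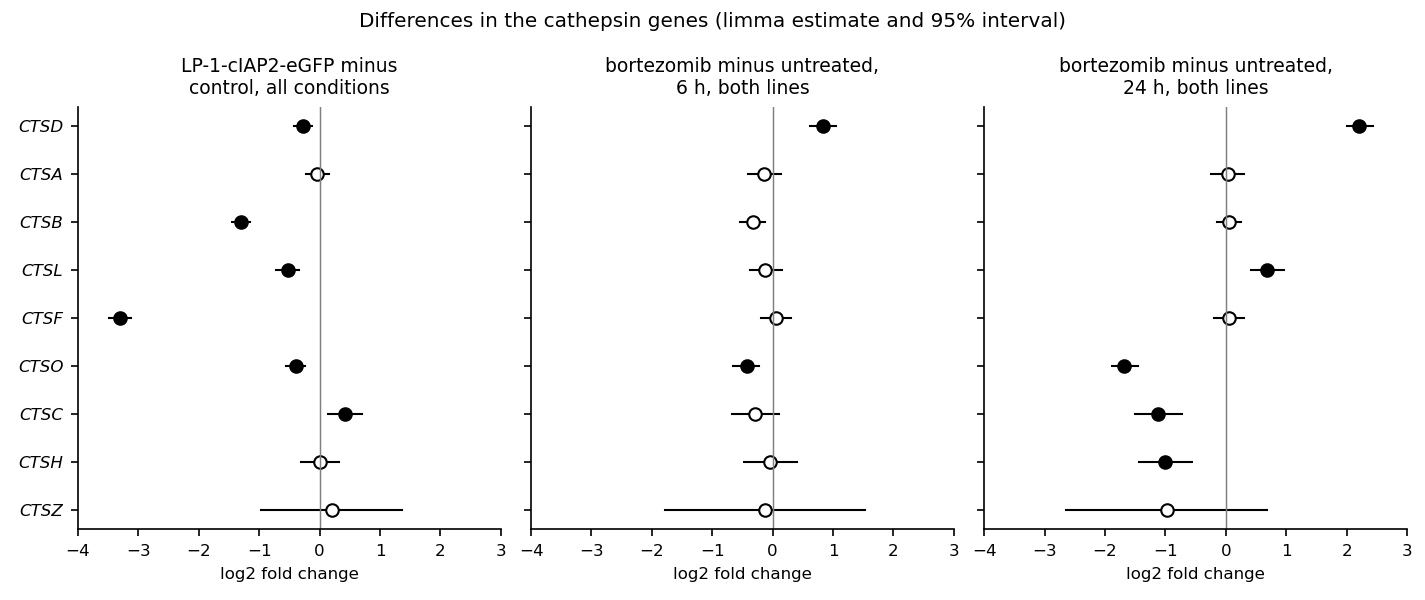
Log2 fold changes (horizontal axis) of the 9 tested cathepsin genes, each on its brightest probe, between the lines and with bortezomib at 6 h and 24 h. Points are limma estimates with 95% intervals, and filled points have an adjusted p under 0.05. CTSF and CTSB, which differed most between the lines, were near 0 with bortezomib at 24 h, where CTSD was at 2.21 and CTSO at -1.68.

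The second question was how bortezomib changed the cathepsins. At 6 h, CTSD rose and CTSO fell, 2 of the 9 tested genes, and 5.93% of probes were called. By gene on the brightest probe, 4.45% of all genes tested rose and 3.93% fell. At 24 h, CTSD and CTSL rose and CTSO, CTSC and CTSH fell, 5 of the 9, and 34.8% of probes were called, 15.1% higher and 19.7% lower. By gene on the brightest probe, the shares were larger: 19.2% of all genes tested rose and 25% fell. The same 5 genes were called in each line, where 21% of probes were called in control cells and 28.6% in LP-1-cIAP2-eGFP cells. By gene, 13.3% rose and 15.1% fell in control cells, and 14.4% rose and 22% fell in LP-1-cIAP2-eGFP cells. The median change of the 9 genes was 0.03, against -0.09 over all genes tested, and its sign turned with the processing: it was -0.25 under 75th percentile scaling (0.02 over all genes) and -0.36 with normexp (-0.03 over all genes). The 8 genes of the response to proteasome inhibition all rose at 24 h, such as the heat shock gene HSPA1B (5.24) and the proteasome subunit gene PSMD12 (1.87). None of the 8 was called between the lines, while 75th percentile scaling called 1 higher.

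CTSD, the main aspartic protease of the lysosome, showed the largest rise. In control cells the untreated arrays read 12.02 and 11.84 at 6 h and 11.98 and 11.83 at 24 h, while bortezomib gave 12.86 and 12.87 at 6 h and 14.26 and 14.14 at 24 h. In LP-1-cIAP2-eGFP cells the untreated arrays read 11.85 and 11.76 at 6 h and 11.78 and 11.56 at 24 h, while bortezomib gave 12.55 and 12.53 at 6 h and 13.79 and 13.80 at 24 h. The treated arrays were above all untreated arrays at both times, and those at 24 h above those at 6 h. The rise over both lines was 0.83 at 6 h (SE 0.0957, adjusted p = 0.00128) and 2.21 at 24 h (SE 0.0957, adjusted p = 4.76e-07), or 1.78-fold and 4.63-fold. It was called at 6 h in each line taken alone, where it was the only member called (1.95% of probes in control cells and 1.09% in LP-1-cIAP2-eGFP cells).

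CTSL rose at 24 h by 0.69 (SE 0.119, adjusted p = 0.00132), by 0.83 in control cells (adjusted p = 0.0061). In LP-1-cIAP2-eGFP cells the rise was 0.55 (adjusted p = 0.0354). Treated and untreated arrays were apart within each line but not when the lines were pooled, since 1 treated LP-1-cIAP2-eGFP array (10.05, the array that stood apart) lay below both untreated control arrays of that time. The other treated LP-1-cIAP2-eGFP array (10.49) lay just above them. At 6 h its change was -0.12 (95% interval -0.38 to 0.15).

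CTSO had the largest fall of the brightest probes. In control cells it went from 12.73 and 12.67 untreated to 11.07 and 11.08 with bortezomib at 24 h, and in LP-1-cIAP2-eGFP cells from 12.22 and 12.23 to 10.63 and 10.36. The change was -1.68 (SE 0.0958, adjusted p = 1.57e-06), or 3.20-fold lower. At 6 h the untreated arrays read 12.71 and 12.81 in control and 12.40 and 12.59 in LP-1-cIAP2-eGFP cells, and the treated ones 12.30 and 12.34, and 12.04 and 12.10. The fall at 6 h was 0.43 (SE 0.0958, adjusted p = 0.0279), although 14 of 26 alternative settings took it past 0.05.

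CTSH fell by 1.00 at 24 h (SE 0.197, adjusted p = 0.00297). In control cells it read 9.15 and 9.46 untreated and 8.22 and 8.55 with bortezomib, and in LP-1-cIAP2-eGFP cells 9.24 and 9.32 untreated and 7.76 and 8.63 with bortezomib. The value of 7.76 came from the array that stood apart and was not well above background. The change stayed between -1.22 and -0.78 and its adjusted p at or under 0.0396 in the 25 alternative settings that gave a value, that array left out among them.

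CTSC fell at 24 h on each of its 3 probes. On the brightest, control cells read 12.17 and 12.56 untreated and 11.16 and 11.41 with bortezomib, and LP-1-cIAP2-eGFP cells 12.73 and 12.82 untreated and 11.20 and 12.03 with bortezomib. The groups did not overlap in either line. The fall was 1.12 on this probe (SE 0.175, adjusted p = 7.20e-04), 1.29 on probe A_23_P1552 (SE 0.128, adjusted p = 3.84e-05) and 2.05 on probe A_33_P3283480 (SE 0.221, adjusted p = 6.78e-05).

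The last of these probes fell more than the others on the same arrays, by a further 0.93 against the brightest probe and 0.76 against the other (-0.93 and -0.76, exact permutation test, 4 against 4 arrays, p = 0.0286 each, 0.0381 after adjustment, and 0.0286 is the smallest p this design allows). This comparison of probes was made after the values were seen. The other pair of probes differed by -0.17 (p = 0.2 in the same exact test). The transcripts or exons that the probes detect were not analysed here, and probe A_33_P3283480 was not well above background on the array that stood apart, so its fall in LP-1-cIAP2-eGFP cells includes a value at background.

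**Figure D3:**
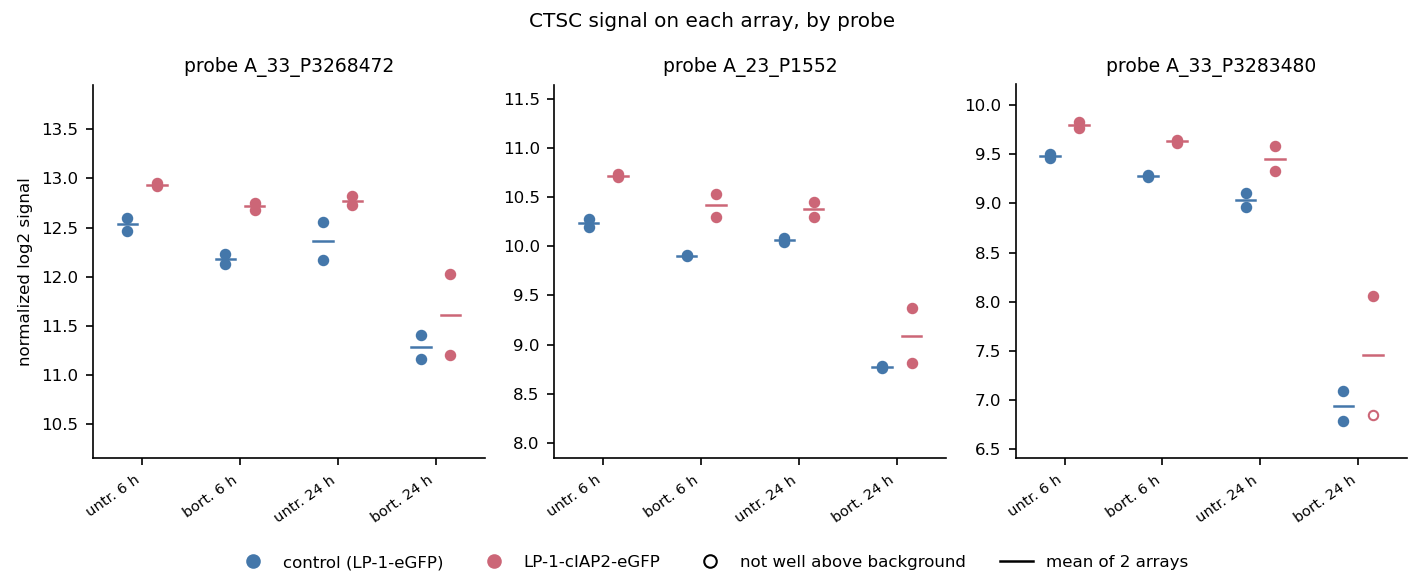
Normalized log2 signal (vertical axis, a span of 3.8 in each panel) of the 3 CTSC probes on each array, by treatment and time. Points are arrays, bars the mean of 2 arrays, and the open point was not well above background. All 3 probes were lower with bortezomib at 24 h in both lines, and A_33_P3283480 fell the furthest, by 2.05.

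CTSB, CTSF and CTSA were not called with bortezomib at 24 h, where their changes were 0.05 (95% interval -0.15 to 0.25), 0.05 (-0.20 to 0.30) and 0.03 (-0.24 to 0.30). At 6 h the CTSB change was -0.33 (SE 0.0901, adjusted p = 0.0637), and each pair of treated arrays lay below the untreated pair of its line. CTSA read between 14.70 and 15.22 over all 16 arrays. Across the members with a promoter sequence, the gene with the largest rise (CTSD) held CACGTG, CTSA and CTSF held it with changes near 0 at 24 h, while of those without it in the window CTSL rose, CTSC and CTSH fell, as given above, and CTSZ was not called.

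Arrays with and without bortezomib at 24 h did not overlap within either line, in the same direction, for CTSD, CTSL, CTSO, CTSC and CTSH, and also for CTSB, whose change was small. A share of 37.3% of probes was apart in this way. On slides 1 and 2, where LP-1-cIAP2-eGFP and control cells respectively had both treatments, the change was 2.01 and 2.24 for CTSD, 0.59 and 0.73 for CTSL, -1.73 and -1.62 for CTSO, -1.12 and -0.95 for CTSC, and -1.05 and -0.75 for CTSH.

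No member responded to bortezomib differently in the lines by the test of that difference, in which 0.00297% of probes were called at 6 h and 0.0712% at 24 h. In limma, 1 of the 9 genes had an unadjusted p under 0.05 at 24 h and none at 6 h. That gene was CTSF, whose change was -0.24 in control cells and 0.34 in LP-1-cIAP2-eGFP cells, a difference of 0.58 (SE 0.227, 95% interval 0.07 to 1.09, adjusted p = 0.58). For CTSD the difference was -0.17 (95% interval -0.60 to 0.26), for CTSL -0.28 (-0.81 to 0.25) and for CTSO -0.12 (-0.55 to 0.31). These intervals hold differences of either sign. Between untreated cells at 24 h and 6 h, limma called none of the 9 genes, none had an unadjusted p under 0.05, and 0.0089% of probes were called.

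CTSZ, a carboxypeptidase, could not be placed. Untreated control arrays read 6.70 and 7.56 at 6 h and 6.07 and 7.78 at 24 h, and untreated LP-1-cIAP2-eGFP arrays 7.03 and 7.74 and then 6.84 and 8.54. With bortezomib, control arrays read 6.97 and 7.27 at 6 h and 5.46 and 7.44 at 24 h, and LP-1-cIAP2-eGFP arrays 6.46 and 7.84 and then 4.81 and 7.60, where 4.81 was not above background. In all 8 conditions the array numbered 2 lay above the array numbered 1, by 1.43 on average and by 0.30 to 2.79. Among 31215 probes, 5.17% had number 2 above number 1 in all 8 conditions and 1.99% had it below, and 9 probes, CTSZ included, had a mean gap at least as large. The spread left CTSZ without a call between the lines (0.20, 95% interval -0.97 to 1.37) or at 24 h (-0.98, 95% interval -2.64 to 0.68, adjusted p = 0.349, or 0.0687 with the replicate number as a block). CTSS, which removes the invariant chain in antigen-presenting cells, exceeded background well on 0 of the 16 arrays, so no fold is given.

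The other genes of the lysosome were described by lists of known members. Over all genes tested, 19.2% rose and 25% fell at 24 h, and 9.04% were higher and 12.7% lower between the lines. Of the cathepsins outside the 10, 4 of 5 were tested, and CTSV, the closest relative of CTSL, was lower between the lines (-0.75, adjusted p = 0.00257) and rose at 24 h (1.43, adjusted p = 0.000154), both in the direction of CTSL. With normexp background correction 0 of the 4 were called in either comparison, so both CTSV calls were lost. As reported, CTSE, CTSG and CTSK were not called in either comparison, and CTSW was not tested. Among 7 tested cathepsin inhibitors, CSTB (cystatin B) and SERPINB6 were higher between the lines (0.36 and 0.86, with 1 of the 7 higher under 75th percentile scaling) and CD74 lower (-1.48). At 24 h, 1 of these rose (SERPINB6, 1.48) and 4 fell, CST5 by 1.39 and CSTB by 0.75 among them. CD74 was also among those that fell, and it is counted again with the class II genes that follow. The 6 genes of class II antigen processing, in which cathepsins act, were all lower between the lines (median -1.23, and 5 of 6 called under 75th percentile scaling) and all fell at 24 h (median -1.68), such as HLA-DMB (-1.59 between the lines and -2.29 at 24 h) and the lysosomal thiol reductase IFI30 (-2.13 at 24 h).

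Of 13 genes listed for sorting and processing, 4 were higher between the lines, GGA1 (0.35) and NEU1 (0.37) among them, and none was lower. The list includes GLB1 and NEU1, the 2 glycosidases that CTSA shields. They were among these 4 and are counted again with the hydrolases below. At 24 h 2 of the 13 rose, the glycosidase gene NEU1 (1.28) and IGF2R (0.33), and 5 fell, GGA2 (-0.93) and SORT1 (-2.85) among them. These counts moved with the processing: 75th percentile scaling called 2 higher between the lines, and normexp called 3 up and 2 down at 24 h. Of 38 lysosomal hydrolases, 19 rose and 11 fell at 24 h (median 0.47), with GLA (2.50) and SCPEP1 (2.23) up and NAGLU (-1.26) and HYAL2 (-1.01) down. Between the lines 8 were higher, such as IDS (0.39) and FUCA1 (0.31), and 7 lower, such as GAA (-0.82) and DPP7 (-1.94), a further lysosomal peptidase, while 75th percentile scaling called 2 higher and 6 lower. Of 27 genes of the lysosomal membrane and proton pump, 13 rose at 24 h, such as NPC1 (1.55) and ATP6V1A (1.35), and 1 fell, SCARB2 (-0.83), while 6 were lower between the lines, such as ATP6V1G1 (-0.92) and ATP6V1H (-0.50), and normexp called 2 higher and 4 lower. Of 9 regulators, 5 rose at 24 h, RRAGC (1.18) and TFEB (0.97) among them, and 1 fell (RRAGD, -1.04). RRAGD was called in LP-1-cIAP2-eGFP cells (-1.77, adjusted p = 0.00445) and not in control cells (-0.31, adjusted p = 0.638), and the test of that difference gave an adjusted p of 0.522. Between the lines MITF (-0.73) and TFEB (-0.32) were lower, and RRAGD (0.70) and ZKSCAN3 (0.34) higher. For these regulators 75th percentile scaling called 2 higher and 1 lower, normexp 1 higher and 1 lower, and the authors' values 1 higher and 2 lower. SERPINB6, HLA-DMB and SORT1 were above background on 15 of the 16 arrays, so their sizes include a value at background.

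**Figure D4:**
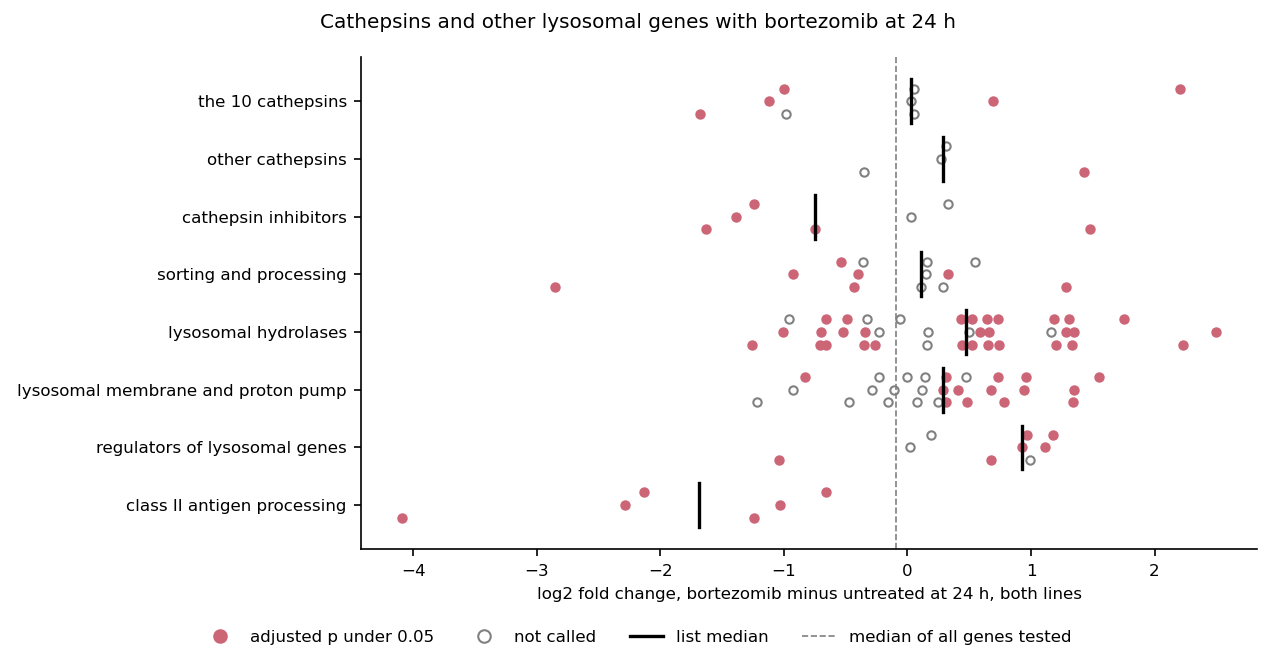
Log2 fold change with bortezomib at 24 h over both lines (horizontal axis) of each tested gene of the lists on its brightest probe. Each list has 1 point per gene, filled where the adjusted p was under 0.05. CD74, GLB1 and NEU1 belong to more than 1 list and are drawn in each. Black bars are list medians and the dashed line is the median of all genes tested (-0.09). Cathepsins lay on both sides, from CTSO at -1.68 to CTSD at 2.21, as did the other lysosomal hydrolases.

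Markers of other cell types moved with some of these comparisons. The summed linear signal of the 7 T and NK cell genes ranged from 591 to 1098 in control cells (median 777) and from 266 to 3052 in LP-1-cIAP2-eGFP cells (median 371). The value of 3052 was that of the array that stood apart, where CD2 read 11.49 on the log2 scale and made up most of the sum. Over all arrays the most abundant gene of the list was GNLY, which was lower between the lines (above background on 14 arrays, adjusted p = 0.00195), as was CD3D (12 arrays, adjusted p = 0.046). Under 75th percentile scaling 1 gene of this list was lower between the lines, against 2 as reported. The 6 macrophage and monocyte genes summed to 212 to 597 in control cells (median 325) and 201 to 664 in LP-1-cIAP2-eGFP cells (median 328), with MARCO the most abundant, and CSF1R, CD163 and MRC1 were not above background on any array. MARCO (above background on 15 arrays, adjusted p = 0.000943) and ITGAM (10 arrays, adjusted p = 0.00098) fell at 24 h, and ITGAM was lower between the lines (adjusted p = 0.00189). Of the fibroblast genes, COL1A1 (on 10 arrays) and DCN (on 6) exceeded background. COL1A1 fell at 24 h over both lines (adjusted p = 0.0487), but no fibroblast gene was called at 24 h under 75th percentile scaling. COL1A1 was called in neither line alone (adjusted p = 0.307 in control and 0.104 in LP-1-cIAP2-eGFP cells). No size is given for these markers, since part of their values lay at background. The part of these genes in the cathepsin results was not tested. Plasma cell genes moved as well: SLAMF7 and SDC1 (1.42) were higher and CD38 (-0.55) lower between the lines, with 4 of the 9 higher and 1 lower in all. SLAMF7 was above background on 13 of the 16 arrays, so no size is given for its differences. At 24 h 6 fell, such as SDC1 (-2.46) and XBP1 (-1.46), and 1 rose (SLAMF7, adjusted p = 0.0448, called in control cells and not in LP-1-cIAP2-eGFP cells, adjusted p = 0.0244 and 0.779), against 8 and 0 under 75th percentile scaling.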

How the data were processed

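RNA of 16 cultures was measured on single-colour Agilent SurePrint G3 arrays. Per the file headers, the deposited intensity values were made by Agilent Feature Extraction 10.7.3.1, which subtracts background and corrects trends within an array, and were not normalized between arrays. The authors also deposited log2 values, quantile normalized in GeneSpring and centred on each probe's median, which served as an alternative. Other deposited columns were the software's flags for spots, a yes or no each.

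Spots flagged as outliers were left out, replicate spots were averaged as log2 values, and arrays were quantile normalized (R 4.3.3, limma 3.58.1). Of 50599 gene probes, 33731 were tested, namely those that the software called well above background in both replicates of some condition. Names came from RefSeq accessions, and 28174 probes (55.7%) had a symbol. Depth is not defined for arrays. Median log2 signals were 5.73 to 6.64, and 3.18 on the array that stood apart.

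limma's lmFit, contrasts.fit and eBayes were fitted to all 16 arrays, with 1 mean for each condition and 1.61 prior degrees of freedom, and were tested on simulated data with 200 changed probes. Folds are 2 to the power of the log2 difference. Named genes were all 10 cathepsins, BIRC3, the list members with the lowest adjusted p in each direction (at most 2 per direction), and the markers above background. The members and lists were chosen with earlier results of these data known. Alternatives were other scalings, background correction, filters, blocks, weights, thresholds and tests, probe averaging, and each array left out. Correlations of same-numbered replicates' deviations from their condition means were -0.111 to 0.236 and over 0.1 in 7 of 28 pairs of conditions. Since not every pair was over 0.1, the numbers were not taken to pair samples, although some probes, CTSZ among them, shifted with the number. Promoter sequences were read from a RefSeq table. Each line is 1 population, and p-values measure the spread between its cultures.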

Additional observations from a re-analysis of the deposited data

How the results depend on the processing

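The counts of cathepsin genes were recomputed under each alternative. Between the lines, 6 genes were called, and 2 when more than 2-fold was also asked, 2 by the methods' 2-group moderated test (unadjusted p under 0.005 and more than 2-fold, 1194 probes) and 2 by the same test after Benjamini-Hochberg (692 probes). The count was 4 with scaling to the 75th percentile, with normexp, without a filter and with the slide as a block, 5 with array weights and 6 with the authors' values, the stricter filter, the replicate block and probe averaging. Leaving out each array in turn gave 4 to 6. The array weights were equal for the 2 arrays of each condition, 0.121 for both of LP-1-cIAP2-eGFP cells with bortezomib at 24 h. They therefore could not set the array that stood apart below its replicate. By the thresholds of the 3-way analysis the count was 2 under each alternative and each array left out (2 to 2). With bortezomib at 6 h, 2 genes were called, and 1 with scaling to the 75th percentile, 1 with normexp, 1 without a filter, 1 with the slide as a block, 4 with array weights, 4 in a fit of only the arrays compared, and 0 when more than 2-fold was asked. Leaving out each array gave 1 to 3. At 24 h, 5 genes were called, 4 to 5 in the alternatives (CTSH was not among the probes above background on all arrays, and CTSL did not reach 2-fold), and 5 to 5 with each array left out. For a different response between the lines the count was 0, and 0 to 1 with each array left out, the 1 being CTSF without replicate 2 of LP-1-cIAP2-eGFP cells with bortezomib at 24 h (0.69, adjusted p = 0.0488), a fit in which the array that stood apart was the only one left of its condition and 9338 probes were called. Between untreated times it was 0 throughout (0 to 0). With the replicate block the counts were 6, 2, 5, 0 and 0 and no call changed. The cause of the other changes was not tested.

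No called difference changed direction. At an adjusted p of 0.05 with no fold asked, and where a gene was still tested, the calls that were lost belonged to CTSC and CTSD between the lines and to CTSO at 6 h. Asking for more than 2-fold also took CTSL and CTSO between the lines, CTSD at 6 h and CTSL at 24 h. Those gained were CTSB and CTSC at 6 h and CTSF as above. With normexp the CTSC difference was 0.25 (adjusted p = 0.62) and the CTSD difference -0.18 (adjusted p = 0.365). Scaling to the 75th percentile moved the median of all probes at 24 h from -0.09 to 0.13, and CTSD then rose and CTSO fell as before. Of the lysosomal hydrolases that scaling called 14 up and 11 down at 24 h, and of the membrane and pump genes 8 up and 1 down at 24 h. Signal over background limited CTSS, the spread between replicates limited CTSZ, and 2 arrays per condition limited all differences within a condition.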
